A study of Mus musculus with 4 samples.

Results

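The genes described here are 10 targets of the transcription factor Nrf2 and enzymes of antioxidant defence: Gclc, Gclm, Gsr, Gpx1, Gpx2, Gpx4, Txnrd1, Srxn1, Nqo1 and Hmox1. They were chosen by name, as every probe set whose annotated gene symbol is exactly among these, which gave 19 of 45101 probe sets and 10 of 18193 genes. Of the 10 genes, 4 were read by 1 probe set and 6 by several. All 10 passed the level filter, which asked for an intensity of at least 20.9, the median of all values, on at least 1 array. The arrays measured total RNA of mouse intestinal organoids, cultures of gut epithelium grown in a gel, carrying floxed Apc (Apc fl/fl) in every group. The 4 groups were untreated organoids at day 4, organoids given 4-hydroxytamoxifen (4OHT) for 24 h at day 4, untreated organoids at day 6 and 4OHT-treated organoids at day 6. The 4OHT served to switch on recombination of Apc, the scaffold gene of the complex that degrades beta-catenin, and the labels call the treated organoids Apc-deficient. Each group was 1 array. The recombinase, its promoter, the age of the mice and the number of cultures behind each array are not given in the sources used here. None of the 4 arrays is of organoids that received 4OHT without the floxed allele, so 4OHT and loss of Apc cannot be told apart.

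Nrf2, encoded by Nfe2l2, is held at a low level by the adaptor Keap1, which passes it to a ubiquitin ligase for degradation. Oxidants and electrophiles release it, and it then binds antioxidant response elements together with small Maf proteins and switches on genes for glutathione synthesis, thiol reduction and quinone detoxification. In the gut, these enzymes meet reactive compounds from food and bacteria, and the glutathione peroxidase Gpx2 is known as an enzyme of the crypt epithelium.

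Levels are given as intensity on a linear scale and differences as log2(intensity + 16), which understates the change of dim genes. With 1 array a group, a comparison within a day or within an arm has no replicate check, and such a difference is described as at least 2-fold or not. The only test was limma's over the 4 arrays, in an additive model of 4OHT and day, at an adjusted p under 0.05. "Rose" and "fell" refer to it. Its residual is the disagreement of the 4OHT difference between the days, with 1 degree of freedom, moderated toward a value pooled over all genes.

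The arrays read epithelium. All 10 markers of intestinal epithelium passed the level filter, and their summed intensity ran from 19745 to 39694. None of them passed limma's test for 4OHT, described below, with 3 at an unadjusted p under 0.05, where 13.9% of all genes tested lay. Among markers of other cells, 7 of 10 immune and 6 of 9 fibroblast and muscle markers also passed the filter. So did 4 of 5 endothelial and 1 of 3 red blood cell markers. Ptprc of leukocytes, Col3a1 of fibroblasts, Tek of endothelium and Hba-a1 of red blood cells were among those under the filter on all 4 arrays. The summed intensity ran from 138 to 241 for 9 fibroblast and muscle markers, from 55.0 to 120.1 for 5 endothelial markers and from 27.4 to 49.4 for 3 red blood cell markers. It ran from 763 to 2397 for 10 immune markers, of which Lyz2, a close copy of a Paneth cell gene, gave 497 to 2046. Lyz2 read 1184 in untreated and 2046 in 4OHT-treated organoids at day 4, and 497 and 1821 at day 6, and it rose with 4OHT by 1.31 ± 0.25 (limma adjusted p = 0.00574), the 1 of 7 immune markers tested that passed. Its part in the results was not tested. Labelling ran from the 3' end. The gap between 3' and 5' control probe sets was wider with 4OHT, by 0.94 (day 4) and 0.62 (day 6) for Actb and by 0.87 and 0.56 for Gapdh. From day 4 to day 6 it shrank in both arms. Spiked hybridization controls differed between day 6 and day 4 by -2.15 on the log2 scale in untreated organoids and by -1.07 with 4OHT. Spiked poly-A controls differed between the days by more in untreated organoids, -2.62, than with 4OHT, -0.98. Between the arms (4OHT minus untreated) hybridization controls differed by -0.32 at day 4 and 0.75 at day 6, and poly-A controls by -0.41 and 1.23. The scaling between the days is unknown, and the part of these differences in the results below was not tested.

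The promoters of 3 of the genes are shown because these genes part ways with 4OHT: Srxn1 fell, Nqo1 had the largest difference downward at day 6, and Gpx2 was higher on both days. Each is the 250 bases before the RefSeq start of the gene on GRCm38.p6, read 5' to 3' on the strand of the gene. Capitals mark letters of a motif that was searched.
Srxn1, chr2:152105274-152105523, plus strand: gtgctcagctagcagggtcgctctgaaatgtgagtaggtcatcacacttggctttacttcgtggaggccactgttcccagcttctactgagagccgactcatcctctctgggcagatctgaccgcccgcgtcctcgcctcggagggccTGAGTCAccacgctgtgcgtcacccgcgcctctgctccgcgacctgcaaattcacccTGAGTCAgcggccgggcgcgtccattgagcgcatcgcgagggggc
Nqo1, chr8:107403206-107403455, minus strand: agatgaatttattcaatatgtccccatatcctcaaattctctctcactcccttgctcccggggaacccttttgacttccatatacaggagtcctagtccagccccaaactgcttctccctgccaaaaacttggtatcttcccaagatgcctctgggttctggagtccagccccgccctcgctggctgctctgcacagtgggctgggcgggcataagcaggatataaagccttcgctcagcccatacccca
Gpx2, chr12:76795555-76795804, minus strand: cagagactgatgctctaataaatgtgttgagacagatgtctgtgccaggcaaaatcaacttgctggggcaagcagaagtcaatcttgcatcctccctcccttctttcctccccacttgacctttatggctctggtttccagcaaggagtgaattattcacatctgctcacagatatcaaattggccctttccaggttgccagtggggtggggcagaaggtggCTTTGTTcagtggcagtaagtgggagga
Motifs were searched on both strands: the core of the antioxidant response element (TGACNNNGC), the heptamer bound by AP-1 (TGACTCA, which is TGAGTCA on the other strand) and the core bound by TCF factors, the DNA partners of beta-catenin (CTTTG followed by a pair of letters that are A or T). TGACTCA read on either strand and followed by GC is also a response element core, so the motifs can overlap. Neither heptamer of Srxn1 is such a case, as Srxn1 held 0 cores of the searched form TGACNNNGC. The heptamer 45 to 39 bases before its start is followed by GC as TGAGTCA, a form that this search does not cover. The 0 therefore does not show that Srxn1 lacks a related element here. Srxn1 held 2 heptamers, 102 to 96 and 45 to 39 bases before its start, and heptamers stood in 4.46% of all 32851 promoters of that length. Gpx2 held a TCF core 28 to 22 bases before its start, as 14.8% of all promoters did. Nqo1 held none of the 3 motifs. Of the 7 members matched in the promoter table, Gclm and 1 of 3 starts of Txnrd1 held a response element core, found in 10.2% of all promoters, and that start of Txnrd1 also held a TCF core. Gpx1 and the 4 starts of Gpx4 held none of these letters. A match in these windows is a description and not a binding site. Bases outside the windows were not searched, so a window without a motif does not show that the gene lacks it.

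**Figure D1:**
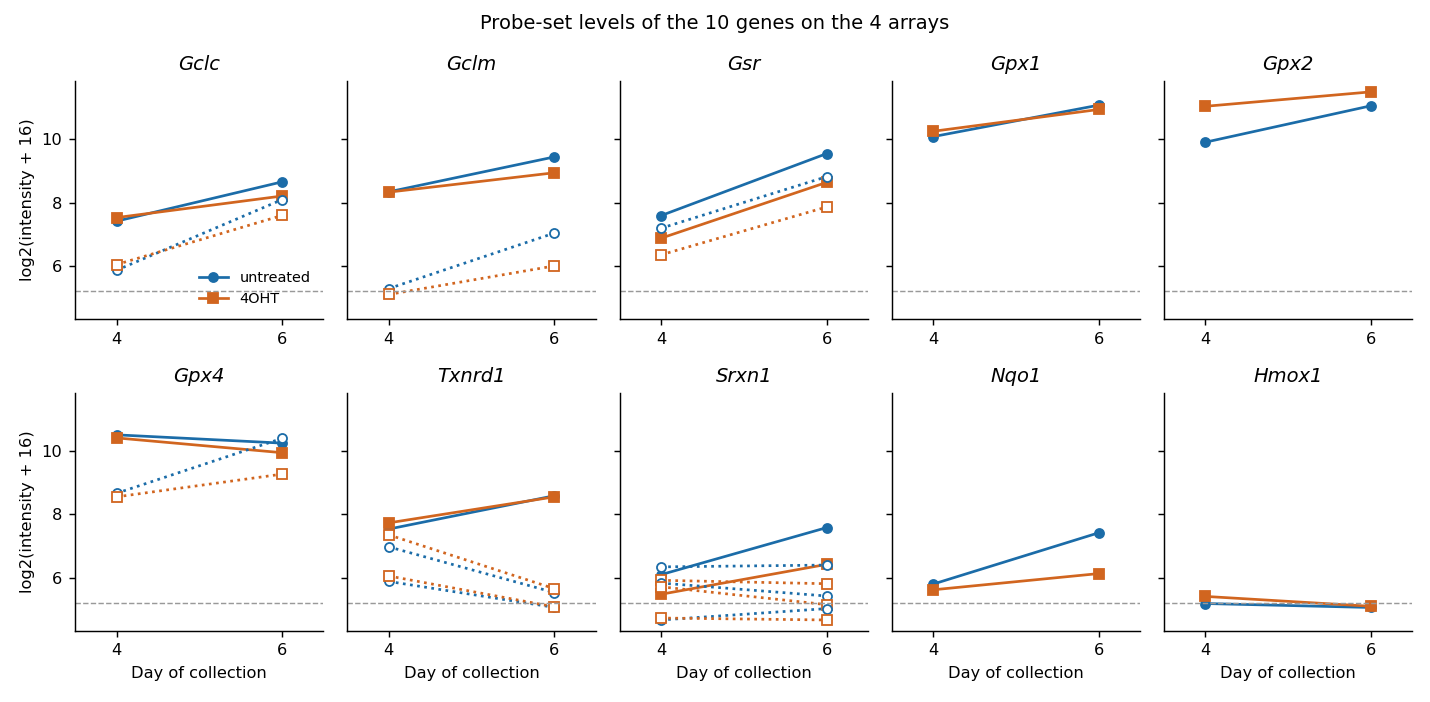
Levels of the 10 genes as log2(intensity + 16) against day of collection, 1 array per point, for untreated (blue circles) and 4OHT-treated organoids (orange squares); filled symbols and solid lines are the brightest probe set of a gene, open symbols and dotted lines its others, and the dashed grey line is the level filter. Gsr and the brightest probe set of Srxn1 lie lower with 4OHT on both days, as do Nqo1, Gclm and Gpx4 by less at day 4. Gpx2 and the dim Hmox1 lie higher on both, and the other 2 probe sets of Txnrd1 run against its brightest over time.

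Treated organoids were compared with untreated ones to find what differed once Apc had been recombined. Of the 10 genes, 2 fell, Gsr and Srxn1, none rose and 8 did not pass. Among all 13192 genes tested, 3.22% passed in either direction, 2.25% downward and 0.97% upward, and 4 of the 10 genes had an unadjusted p under 0.05, beside 13.9% of all genes. The median 4OHT effect was -0.18 over the 10 genes and 0.02 over all genes tested. In these bulk samples, fewer cells that express a gene and less of its RNA per cell cannot be told apart.

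Glutathione is made in a first, rate-limiting step by a ligase whose catalytic subunit is Gclc and whose modifier subunit is Gclm. Gclc had intensities of 155 (untreated) and 168 (4OHT) at day 4, and of 386 and 279 at day 6. The arrays of day 4 lay close together, and at day 6 the 4OHT array was the lower. The differences were 0.11 and -0.44, and the effect over both days was -0.17 ± 0.22 (SE, limma adjusted p = 0.835). The other probe set of Gclc differed by 0.18 and -0.50, much like the brightest. Gclm read 307 and 305 at day 4, and 676 and 474 at day 6. It followed the pattern of its partner subunit, with differences of -0.01 and -0.50 and an effect of -0.25 ± 0.22 (adjusted p = 0.692). Its dimmer probe set read 116 in untreated and 48.4 in 4OHT-treated organoids at day 6, a difference of -1.03. Neither subunit passed the test.

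Gsr, glutathione reductase, returns oxidized glutathione to its reduced form with NADPH. Its brightest probe set read 177 in untreated and 102 in 4OHT-treated organoids at day 4, and 727 and 381 at day 6. The 4OHT array was the lower on both days, and both arrays of day 6 lay above both of day 4. Gsr was 1.64-fold lower with 4OHT at day 4 and 1.87-fold lower at day 6, and fell by 0.81 ± 0.21 (SE, limma adjusted p = 0.0450). The other probe set read 130.3 and 66.0 at day 4, and 434 and 216 at day 6, differences of -0.84 and -0.95. Both probe sets therefore had the same direction and a like size on both days. The adjusted p lay close to the threshold and ranged from 0.0200 to 1 over the alternatives. Gsr passed in 4 of 11 of them, failing after quantile normalization, with other pseudocounts or with no level filter among others. The 4 include the looser threshold of 0.1, which a gene past 0.05 cannot fail.

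The glutathione peroxidases use glutathione to reduce peroxides, and Gpx1, Gpx2 and Gpx4 carry selenocysteine at the active site. Gpx2, the epithelial member of the family, read 938 in untreated and 2068 in 4OHT-treated organoids at day 4, and 2092 and 2838 at day 6. The 4OHT array was the higher on both days. The difference was 2.19-fold at day 4 and 1.35-fold at day 6. No other member was at least 2-fold higher at day 4, when 1% of all genes were, and after quantile normalization Gpx2 was just short of that as well (a difference of 0.99). The effect over both days was 0.78 ± 0.23 (limma adjusted p = 0.0791), which did not pass. Over the alternatives its size stayed between 0.76 and 0.79, and its adjusted p ran from 0.0559 to 1. Only other pseudocounts, median centring and quantile normalization could change that size, as the rest leave the effect of this gene as it was. Gpx2 was read by 1 probe set only.

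Gpx1, the cytosolic peroxidase found in most cells, read 1061 and 1193 at day 4, and 2122 and 1929 at day 6. The arrays of a day lay close together, with 4OHT slightly higher at day 4 and slightly lower at day 6 (0.17 and -0.14), and the effect over both days was 0.02 ± 0.21 (adjusted p = 0.989). Gpx4 reduces lipid peroxides in membranes and guards against ferroptosis. Its brightest probe set, of the _x_at kind that can bind more than 1 transcript, read 1426 and 1333 at day 4, and 1188 and 962 at day 6. The differences with 4OHT were -0.10 and -0.30, and the effect was -0.20 ± 0.21 (adjusted p = 0.770). The other probe set of Gpx4 read 388 and 357 at day 4, and 1319 and 597 at day 6. It differed by -1.12 with 4OHT at day 6, and it put untreated organoids higher at day 6 where the brightest put them lower. Its effect was -0.62 ± 0.25 in a fit of every probe set (adjusted p = 0.349).

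Txnrd1, the cytosolic selenoenzyme that reduces thioredoxin, was read by 3 probe sets. The brightest gave 169 and 196 at day 4, and 367 and 357 at day 6. The 4OHT differences were small, 0.20 and -0.04, with an effect of 0.08 ± 0.21 (adjusted p = 0.934). The other probe sets, an _a_at and an _x_at, were 0.38 and 0.17 higher with 4OHT at day 4 and 0.12 and 0.02 higher at day 6. None of the 3 gave a 4OHT difference of 2-fold.

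Srxn1, sulfiredoxin, repairs peroxiredoxins that peroxide has over-oxidized and is a well-known Nrf2 target. Its brightest probe set, of the _s_at kind, read 52.6 in untreated and 28.7 in 4OHT-treated organoids at day 4, and 175 and 69.8 at day 6. The 4OHT array was the lower on both days, by 1.53-fold and 2.23-fold, and Srxn1 fell by 0.89 ± 0.22 (limma adjusted p = 0.0349). The next probe set read 65.3 and 44.6 at day 4, and 68.5 and 40.3 at day 6, differences of -0.42 and -0.59. The third, at 41.1 and 36.7, then 27.1 and 19.7, differed by -0.12 and -0.27. The fourth lay under the level filter on every array, with 9.57 to 16.8. The 3 probe sets past the filter had the same direction on both days with unequal sizes. With the brightest probe set that is not _x_at or _s_at, the effect was -0.50 and the adjusted p 0.294, and with the mean of all 4 it was -0.43 with an adjusted p of 0.273. Over all alternatives the adjusted p ran from 0.0202 to 1, and Srxn1 passed in 4 of 11.

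Nqo1 reduces quinones in a step that avoids radical intermediates and is widely used as a read-out of Nrf2 activity. It read 39.9 and 33.3 at day 4, and 155 and 54.2 at day 6. Untreated organoids at day 6 stood above the other 3 arrays. The difference with 4OHT was -0.18 at day 4 and -1.28 at day 6, when Nqo1 was 2.43-fold lower. On the brightest probe sets, Nqo1 and Srxn1 were the 2 members at least 2-fold lower at day 6, when 2.97% of all genes were, and the dimmer probe sets of Gclm and Gpx4 were as well. Without _x_at and _s_at probe sets the 2 were Nqo1 and Gpx4, with Srxn1 at -0.59. On the brightest probe sets no member was 2-fold higher (0.879% of all genes). At day 4 none was 2-fold lower (1.22% of all genes). The effect over both days was -0.73 ± 0.25 and did not pass (limma adjusted p = 0.153). Hmox1, heme oxygenase 1, which breaks down heme and is repressed by Bach1, read 20.6 and 26.7 at day 4, and 17.6 and 18.4 at day 6. Only the 4OHT array of day 4 was above the level filter, so little can be read from its effect of 0.13 ± 0.21 (adjusted p = 0.873).

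**Figure D2:**
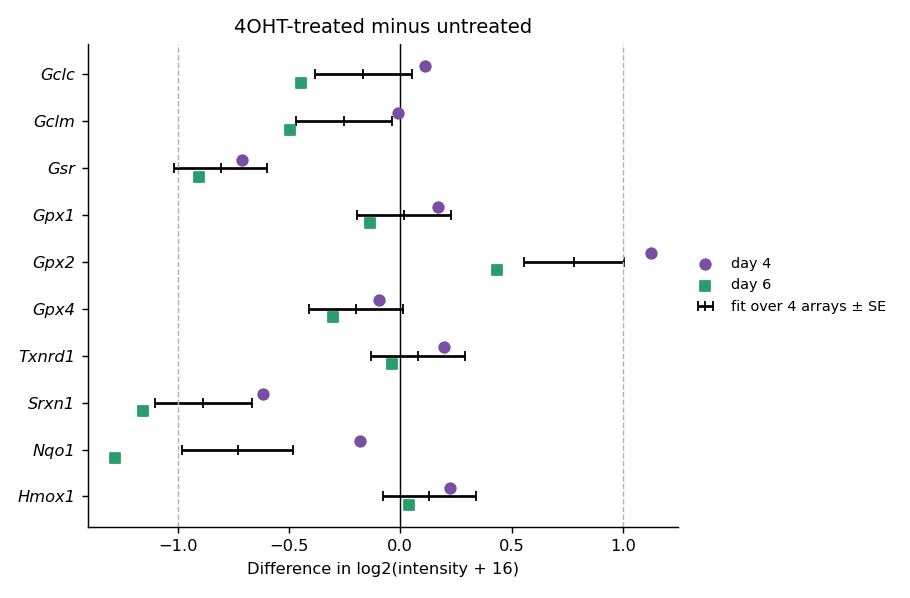
Difference of 4OHT-treated minus untreated organoids in log2(intensity + 16) for the brightest probe set of each gene, at day 4 (purple circles) and day 6 (green squares), 1 array against 1; black bars are the limma effect over the 4 arrays ± SE, and dashed lines mark 2-fold. Gsr and Srxn1 lie below 0 on both days, as do Nqo1, Gclm and Gpx4 with smaller differences at day 4. Gpx2 and the dim Hmox1 lie above 0 on both, and each gene has the lower value at day 6.

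In all 10 genes the 4OHT difference was lower at day 6 than at day 4, and so it was in all 19 probe sets, which share genes. The same held for 57.7% of all genes tested. After quantile normalization it held for 8 of the 10 genes and for 49.0% of all genes. The median difference over the 10 genes was 0.05 at day 4 and -0.37 at day 6, beside 0.06 and -0.0044 over all genes tested. After quantile normalization the median at day 4 was -0.044. At day 4, 5 of the genes were below 0, and at day 6, 8 were, against 43.2% and 50.5% of all genes. This pattern was noticed after the values were seen and has no test, since the design leaves no error for a difference between the days.

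The comparison of day 6 with day 4 asked how the genes differed with time in culture. Of the 10 genes, 8 rose, none fell and 2, Gpx4 and Hmox1, did not pass. This count stands beside a background in which 35.1% of all genes rose, 18.8% fell and 53.9% passed in either direction. In untreated organoids 7 of the genes were at least 2-fold higher at day 6 (24.1% of all genes), and with 4OHT 1 was, Gsr (16.4% of all genes). None of the genes was 2-fold lower at day 6 in either arm (5.29% of all genes in untreated and 2.69% in 4OHT-treated organoids). The medians were 1.12 in untreated and 0.64 in 4OHT-treated organoids, against 0.16 and 0.04 over all genes. Markers of intestinal epithelium did likewise, with 8 of 10 that rose and a median day effect of 1.08. Of the markers of other cells tested, 4 of 7 immune (median -0.54), 3 of 6 fibroblast and muscle (median -0.51) and the 1 red blood cell marker (-0.65) fell, and 0 of 4 endothelial ones passed (median -0.46). Their part in the result was not tested. After quantile normalization 3 of the 10 genes rose (Gsr, Srxn1 and Nqo1) and 1, Gpx4, fell, and the medians became 0.48 and 0.24. Without the 4OHT term 5 rose.

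On the brightest probe sets Gsr had the largest rise of the 10 genes, by 1.85 ± 0.21 (limma adjusted p = 4.25e-06), and was 3.86-fold higher at day 6 in untreated and 3.37-fold higher in 4OHT-treated organoids. Its other probe set gave 1.62 and 1.504. Srxn1 rose by 1.21 ± 0.22 (adjusted p = 0.000273) on its brightest probe set, but the next was level (0.06 and -0.11) and the third lower at day 6 (-0.41 and -0.56). Nqo1 rose by 1.06 ± 0.25 (adjusted p = 0.00223), 3.06-fold in untreated and 1.42-fold in 4OHT-treated organoids.

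Gclc rose by 0.96 ± 0.22 and Gclm by 0.85 ± 0.22, on their brightest probe sets. The other probe set of each was further apart, by 2.22 in untreated and 1.54 in 4OHT-treated organoids for Gclc and by 1.74 and 0.90 for Gclm. In a fit of every probe set, that of Gclc rose by 1.88 ± 0.22, beside 1.85 for the brightest of Gsr. Gpx1 rose by 0.84 ± 0.21 and Gpx2 by 0.80 ± 0.23, each read by a single probe set. Txnrd1 rose by 0.93 ± 0.21 on its brightest probe set. Its other 2 went the opposite way, from 110 and 43.2 in untreated organoids at day 4 to 30.4 and 17.6 at day 6, and the mean of the 3 gave a day effect of -0.51. The rise of Txnrd1 therefore depends on the probe set read. The same is true of Gpx4, whose day effect was -0.36 ± 0.21 on the brightest probe set (adjusted p = 0.148) and 1.22 on the other (adjusted p = 0.000927 with _x_at and _s_at probe sets left out). Hmox1 differed by -0.22 ± 0.21 (adjusted p = 0.380).

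**Figure D3:**
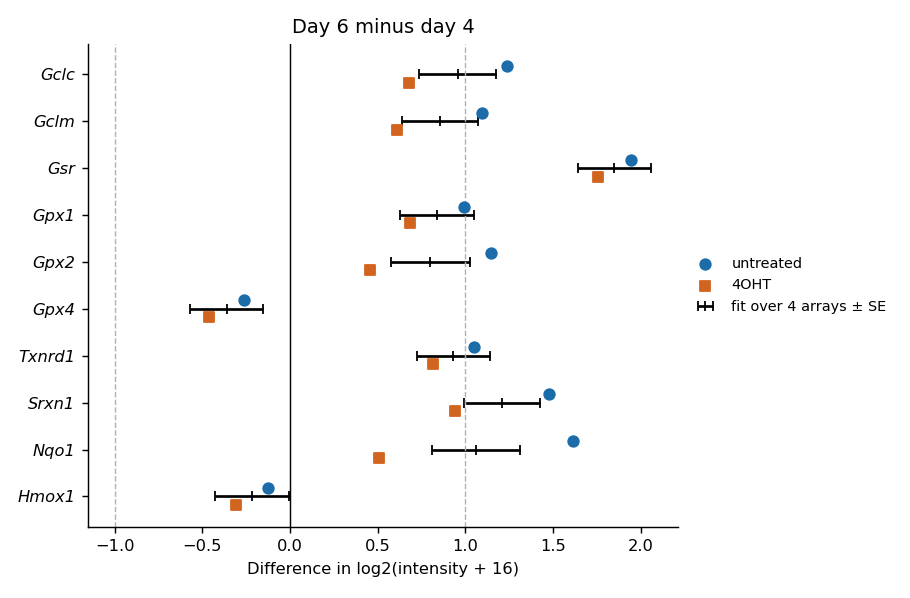
Difference of day 6 minus day 4 in log2(intensity + 16) for the brightest probe set of each gene, in untreated (blue circles) and 4OHT-treated organoids (orange squares), 1 array against 1; black bars are the limma effect over the 4 arrays ± SE, and dashed lines mark 2-fold. Gsr lies furthest right, Gpx4 and Hmox1 lie below 0, and the untreated value is the higher for each gene.

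Regulators of Nrf2 were read beside its targets. Of 12 regulators measured, 11 were tested and none passed the limma test for 4OHT, with 3 at an unadjusted p under 0.05 (13.9% of all genes) and a median effect of -0.18. Nfe2l2, the gene of Nrf2 itself, read 254 and 149 at day 4, and 901 and 515 at day 6. The 4OHT array was the lower on both days, with differences of -0.71 and -0.79, without passing (-0.75 ± 0.21, adjusted p = 0.0655). After median centring it did pass (-0.75, limma adjusted p = 0.0481). It did not after quantile normalization (adjusted p = 0.108) or with the mean of both probe sets (adjusted p = 0.17). In 9 of 11 alternatives Nfe2l2 stayed short of passing. Its dimmer probe set differed by 0.05 at day 4 and -0.67 at day 6. Bach1, a repressor that competes with Nrf2 for the same elements, differed by -0.54 and -0.97 (-0.75 ± 0.21, adjusted p = 0.0762) on its brightest probe set and by 0.09 and -0.18 on the other. Cul3, the ligase scaffold that Keap1 joins, differed by -0.65 and -0.37 (-0.51 ± 0.21, adjusted p = 0.277), and its 4 dimmer probe sets were also lower on both days. Over time Nfe2l2 rose by 1.72 ± 0.21 (adjusted p = 7.52e-06). Of the 11 regulators 4 rose and 4 fell over time, beside 35.1% and 18.8% of all genes.

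Of 26 other reported Nrf2 targets 22 were measured and 21 tested. With 4OHT, 3 fell (2.25% of all genes), none rose (0.97%) and 18 did not pass. Of the 21, 9 had an unadjusted p under 0.05 (13.9% of all genes), and the median effect was -0.18. Mgst1, a membrane glutathione transferase, read 528 and 222 at day 4, and 5390.4 and 1702 at day 6, and fell by 1.42 ± 0.22 (limma adjusted p = 0.00120). The 4OHT array was the lower on both days, and the other probe set of Mgst1 lay under the filter. With the mean of both probe sets the effect was -0.73 (adjusted p = 0.0419). Gsta4, which conjugates products of lipid peroxidation, read 399 and 192, then 689 and 290.3, and fell by 1.10 ± 0.21 (adjusted p = 0.00662). Gstm3, a transferase of the mu class, read 148 and 99.0, then 363 and 105, and fell by 1.08 ± 0.25 (adjusted p = 0.0249). Its probe set is of the _s_at kind and genes of this class are close copies, so its identity is uncertain. The mean with its other probe set, which lay under the filter, gave -0.64 (adjusted p = 0.126). Over the alternatives the call was lost for Mgst1 and Gsta4 in 4 of 11 each and for Gstm3 in 6 of 10, with a pseudocount of 1 or 64, no level filter or no day term in each case, and for Gstm3 also with every probe set in the fit (adjusted p = 0.0819). In the other direction, and named after their values were seen, the exporters Abcc1 (0.81 ± 0.22, adjusted p = 0.0535) and Abcc4 (0.86 ± 0.24, adjusted p = 0.0655) were higher on both days without passing. Lower on both days without passing were Ugdh (-0.87 ± 0.25, adjusted p = 0.0790) and Idh1 (-0.76 ± 0.23, adjusted p = 0.102). So were Gsta3 (-0.65 ± 0.21, adjusted p = 0.124) and Gsta2 (-0.60 ± 0.22, adjusted p = 0.196). Abcc1, Idh1 and Gsta3 have 2 probe sets each, of which only the brightest is given.

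Of 8 genes of glutathione synthesis and breakdown tested for 4OHT, 1 fell (2.25% of all genes) and none rose (0.97%). It was Cth, cystathionine gamma-lyase, which makes the cysteine that glutathione is built from. Cth read 170.2 and 50.7 at day 4, and 1262 and 343 at day 6, and fell by 1.66 ± 0.21 (limma adjusted p = 0.000393). It was the lower with 4OHT on both days, and over time it rose by 2.61 ± 0.21. The 4OHT call for Cth was lost in 3 of 11 alternatives, with a pseudocount of 64, no level filter or no day term.

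None of 12 peroxiredoxins, thioredoxins and glutaredoxins passed the limma test for 4OHT, and their median effect was 0.05. Among them 2 had an unadjusted p under 0.05, beside 13.9% of all genes. Txn1, the thioredoxin that Txnrd1 reduces, read 2095 and 1147 at day 4, and 6150.5 and 3800.0 at day 6 (-0.78 ± 0.21, adjusted p = 0.0552), and its other probe set was also lower on both days. After median centring Txn1 did pass (-0.78, adjusted p = 0.0395). It did not after quantile normalization (adjusted p = 0.116), and in 9 of 11 alternatives it stayed short of passing. Glrx differed by -0.49 ± 0.21 and Prdx3, the mitochondrial peroxiredoxin, by -0.40 ± 0.21. None of 6 dismutase, catalase and other peroxidase genes passed either, and their median was -0.21. Among them 1 had an unadjusted p under 0.05 (13.9% of all genes). Sod2, the mitochondrial superoxide dismutase, differed by -0.67 ± 0.22, and by -0.40 with the mean of its probe sets. Cat, catalase, differed by -0.38 ± 0.22. Sod1 differed by 0.17 ± 0.21 on its brightest probe set and by -0.033 without _x_at and _s_at probe sets. The other probe set of Cat differed by -0.97 at day 4 and -1.48 at day 6, and with the mean of both Cat passed (-0.80, adjusted p = 0.0388). In 10 of 11 alternatives Cat did not pass. None of 8 genes of selenoprotein synthesis passed, with 2 at an unadjusted p under 0.05 (13.9% of all genes) and a median of 0.04. Sepsecs differed by -0.46 ± 0.21, Secisbp2 by 0.39 ± 0.21 and Scly by 0.38 ± 0.21. The other probe set of Sepsecs differed by 0.24 at day 4 and -0.28 at day 6. That of Secisbp2 differed by 0.60 and 0.0074, and that of Scly by 0.10 and 0.24.

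**Figure D4:**
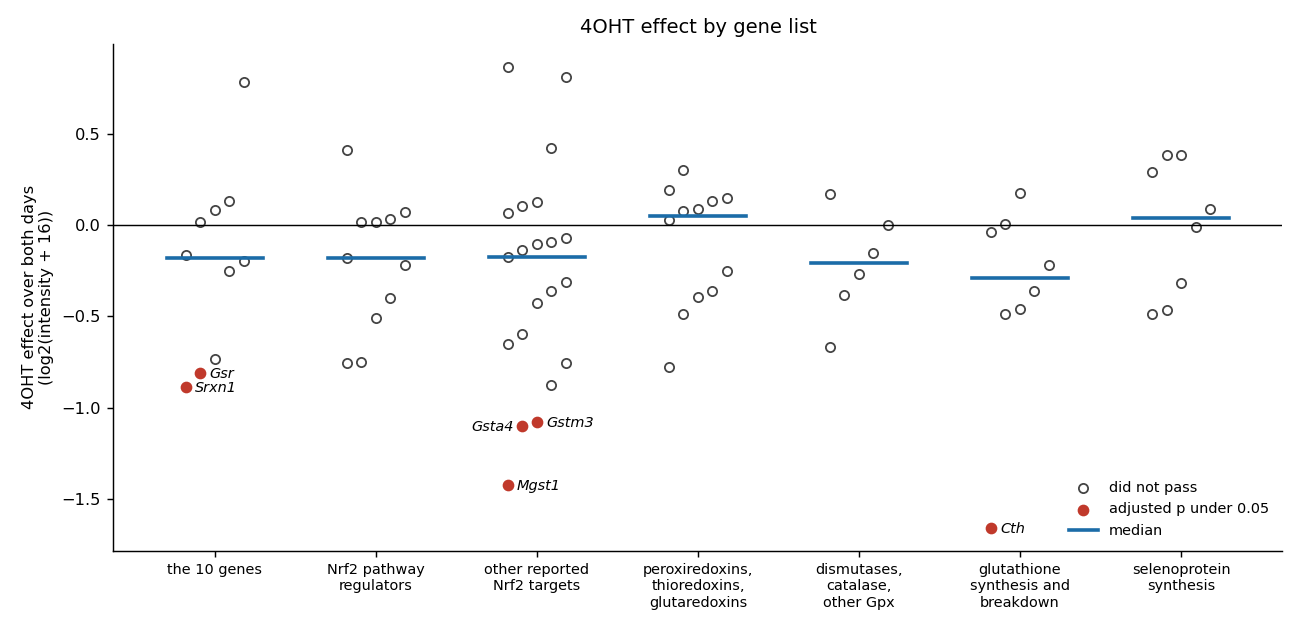
The limma 4OHT effect over both days, in log2(intensity + 16), for each gene past the level filter in the 10 genes and in 6 lists of related genes; red points passed at an adjusted p under 0.05, open points did not, and blue lines are medians. Gsr and Srxn1, Mgst1, Gsta4 and Gstm3, and Cth are the genes that passed, all below 0.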

How the data were processed

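The values are linear probe-set intensities as the authors deposited them, with 1 value for a probe set on each array. Per the labels' protocols, 100 ng of total RNA was labelled from the 3' end by in vitro transcription. Background correction, summarisation and scaling are not given in the sources used here. All 4 columns were used.

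Probe sets were named from the platform's annotation. Of 45101, 34945 that are not controls name 1 gene, and 932 name several and were left out. Each of 18193 genes took the probe set with the highest mean log2(intensity + 16), and 13192 genes passed the level filter. The fit was limma 3.58.1 (lmFit, eBayes) in R 4.3.3 on the whole table, with Benjamini-Hochberg adjustment over those genes, 15.2 prior degrees of freedom and an SD of 0.215 as prior. The fit was also run on simulated data with additive effects and independent noise. Such data cannot show whether the disagreement between the days is error in these arrays. Nothing states that the arrays came from separate cultures. The p-values rest on the disagreement of the 4OHT difference between the days, moderated toward the pooled value. They do not measure a spread between cultures, and the number of arrays limits their precision. Tables and figures used Python 3.11.15, pandas 2.3.3, numpy 2.4.6 and matplotlib 3.10.9. Promoter sequences are from RefSeq (GRCm38.p6), for 7 of the 10 genes.

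The members, the gene lists and the rules were chosen with earlier results of these data known. The text names all members, each gene of a related list that passed for 4OHT and, where none did, up to 3 genes of the same direction on both days, ranked by the lesser difference. Alternatives were pseudocounts of 1 and 64, median centring, quantile normalization, the mean of all probe sets, no _x_at or _s_at probe sets, no level filter or one at the 75th percentile, every probe set in the fit, no term for the other factor, an adjusted p of 0.1 and 1.5-fold.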

Additional observations from a re-analysis of the deposited data

Results flagged for a closer look

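In 3 of the 10 genes the 4OHT difference had opposite signs on the 2 days, with 1 array against 1 on each day, and the difference between the days was not tested. Gclc was 0.113 higher with 4OHT at day 4 and differed by -0.445 at day 6 on the log2(intensity + 16) scale. For Txnrd1 the differences were 0.195 (day 4) and -0.0356 (day 6), and for Gpx1 they were 0.168 and -0.136. None of these differences reached 1.5-fold.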

How the results depend on the processing

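With 1 array a group, nothing measures the spread between cultures, and dim probe sets (Hmox1 and the lesser ones of Srxn1) limit what can be read. The labels give no replicate numbers; the day term sets 4OHT against untreated organoids within a day, and the fit with no day term is the same comparison without that pairing. For 4OHT, all 10 genes kept their direction under the alternatives that could change their effect. Those were the other pseudocounts, median centring and quantile normalization. The mean of all probe sets could do so only for genes with several. Leaving out _x_at and _s_at probe sets could do so only where the brightest was of that kind. The rest leave the effect of each gene as it was, so they cannot check its direction. The fall of 2 genes became 1 after quantile normalization (Srxn1) and with the mean of all probe sets (Gsr). It became 0 with a pseudocount of 1 or 64, without _x_at and _s_at probe sets or with no level filter. It was also 0 with no day term and with every probe set in the fit. Gpx2 passed at an adjusted p of 0.1, so that 1 gene rose. Over all genes, 128 rose and 297 fell. These became 7 and 40 with a pseudocount of 1, and 0 and 0 with a pseudocount of 64, no level filter or no day term. The number that rose was 77 after quantile normalization, 84 when probe sets were averaged and 201 at an adjusted p of 0.1.

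For day, the 8 genes that rose became 3, with 1 that fell, after quantile normalization, and 5 with no 4OHT term; with the mean of all probe sets 1 fell. Over all genes, 4631 rose and 2474 fell. The rise became 2779 after quantile normalization, and the fall 1182 with a pseudocount of 64, 1238 with a filter at the 75th percentile and 1347 with no 4OHT term. The day effect turned sign for Txnrd1 (-0.508 with the mean of all probe sets, also -0.401 in untreated organoids), Srxn1 (-0.0251 without _x_at and _s_at probe sets) and Gpx4 (0.429 with the mean and 1.22 without those probe sets). The 4OHT effect of Sod1 turned to -0.0327 without _x_at and _s_at probe sets.

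At day 4, the 1 gene at least 2-fold higher with 4OHT became 0 and the median turned to -0.0441 after quantile normalization, and 2 genes were lower at 1.5-fold. At day 6, the 2 genes at least 2-fold lower became 0 with a pseudocount of 64 and 1 after quantile normalization or with the mean of all probe sets. From day 4 to day 6, the 7 genes higher in untreated organoids became 2 after quantile normalization, with a median of 0.484, and the 1 gene higher with 4OHT became 2 with a pseudocount of 1, median centring, the mean of all probe sets or no _x_at and _s_at probe sets, and 6 at 1.5-fold; the median with 4OHT was 0.245 after quantile normalization. The share of all genes at 1.5-fold was not counted, so the counts of genes at 1.5-fold have no background to stand beside. The cause of each change was not tested. The count of genes with a lower 4OHT difference at day 6 and its alternatives were chosen after seeing the data.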
